A study of Mus musculus with 8 samples.

Results

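The genes of glucose transport, glycolysis, lactate handling and the pentose phosphate pathway were followed in epididymal white adipose tissue of Ccdc92 knockout (KO) and wild type (WT) mice. They were chosen by name, as 38 gene symbols. No value entered that rule, but earlier results of these data were known. Through the GENCODE M21 annotation the 38 symbols matched 39 of the 24821 genes in the deposited table, because Aldoa is carried by 2 identifiers. All 39 passed the filter on low values and were tested. The set holds 8 sugar transporters, 3 hexokinases, the enzymes of each later glycolytic step with their isoforms, 2 lactate dehydrogenases, 2 monocarboxylate transporters and 4 pentose phosphate enzymes.

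The study measured RNA from this gonadal fat depot in 4 WT and 4 KO libraries from male mice of the C57BL/6 strain. WT controls were littermates of the same age, and both groups ate a high-fat diet (60% of calories from fat, 20% from protein, 20% from carbohydrate) for 14 weeks, so neither group shows the tissue on a standard diet. Genotype is the only factor that differed between groups by the labels. The making of the Ccdc92 allele and the age of the mice were not given in the sources used here. The labels do not state that the libraries of a group are from different animals, so the p-values measure the spread between these libraries, which may be technical.

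Glucose enters a cell through facilitative transporters of the SLC2A (GLUT) family and is trapped by hexokinase as glucose-6-phosphate. That product either continues through glycolysis to pyruvate and lactate, or enters the pentose phosphate pathway, which makes NADPH and ribose-5-phosphate. In adipocytes insulin moves GLUT4, the product of Slc2a4, to the cell surface, and glucose carbon supplies the glycerol backbone of triglyceride and substrate for fatty acid synthesis. Many steps are catalysed by isoforms that different cell types use in different proportion, and bulk fat holds adipocytes together with macrophages, endothelium and fibroblasts.

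The hexokinases carried the clearest contrast between isoforms of 1 step, and the start regions of their genes are shown here to place that contrast on the genome. The sequences are RefSeq promoter windows on GRCm38.p6, which reach from upstream of an annotated start to just past it, and 36 of the 38 symbols had at least 1 window. Capitals mark the core of the hypoxia response element, ACGTG, on either strand, so that CACGT is the same core read on the other strand. Where both strands match, the capitals spell the E-box CACGTG, the site of carbohydrate response and MYC-type factors. Ldha is shown as well because its first window held the most matches of those printed. Its second window, at 46846832 to 46847131, held neither motif and is not printed. These windows were chosen after the values had been seen.
Hk1, chr10:62379859-62380158, minus strand: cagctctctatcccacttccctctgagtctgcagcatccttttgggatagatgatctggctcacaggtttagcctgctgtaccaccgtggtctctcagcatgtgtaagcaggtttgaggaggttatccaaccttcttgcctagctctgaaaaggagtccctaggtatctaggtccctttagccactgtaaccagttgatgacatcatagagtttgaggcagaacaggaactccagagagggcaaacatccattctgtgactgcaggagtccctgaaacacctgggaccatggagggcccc
Hk1, second start, chr10:62340372-62340671, minus strand: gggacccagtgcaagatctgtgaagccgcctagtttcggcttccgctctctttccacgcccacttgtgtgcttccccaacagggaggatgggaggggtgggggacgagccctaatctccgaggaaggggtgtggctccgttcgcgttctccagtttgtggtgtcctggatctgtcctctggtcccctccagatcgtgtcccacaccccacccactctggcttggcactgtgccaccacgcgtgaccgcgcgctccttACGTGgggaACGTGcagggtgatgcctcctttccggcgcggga
Hk2, chr6:82774405-82774704, minus strand: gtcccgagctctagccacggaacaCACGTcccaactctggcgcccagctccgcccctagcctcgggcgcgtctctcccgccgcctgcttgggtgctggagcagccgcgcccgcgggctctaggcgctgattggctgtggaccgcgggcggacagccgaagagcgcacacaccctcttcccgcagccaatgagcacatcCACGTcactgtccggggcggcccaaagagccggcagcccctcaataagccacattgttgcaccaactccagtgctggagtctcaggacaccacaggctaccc
Hk3, chr13:55021336-55021635, minus strand: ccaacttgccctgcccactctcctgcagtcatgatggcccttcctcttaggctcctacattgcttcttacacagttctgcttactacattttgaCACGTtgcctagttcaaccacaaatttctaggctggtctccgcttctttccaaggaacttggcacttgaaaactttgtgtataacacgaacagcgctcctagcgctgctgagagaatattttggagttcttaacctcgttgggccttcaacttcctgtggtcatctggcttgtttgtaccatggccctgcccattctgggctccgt
Ldha, chr7:46845554-46845853, plus strand: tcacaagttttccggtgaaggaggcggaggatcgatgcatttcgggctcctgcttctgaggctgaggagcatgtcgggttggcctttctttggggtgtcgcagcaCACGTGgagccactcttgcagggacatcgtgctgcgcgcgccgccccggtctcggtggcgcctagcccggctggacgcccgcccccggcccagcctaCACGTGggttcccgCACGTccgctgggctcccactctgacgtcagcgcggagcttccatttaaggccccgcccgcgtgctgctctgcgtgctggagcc

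ACGTG was absent from the first Hk1 window and occurred 2 times in the second, 2 times in the Hk2 window, 1 time in the Hk3 window and 5 times in the printed Ldha window. Of these windows, the E-box CACGTG was found in Ldha alone, at 2 places, each of which holds ACGTG on both strands and so counts 2 times. Over the whole set, 21 of 54 windows (38.9%), belonging to 17 of the 36 matched genes, held ACGTG, against 19.6% of all 32851 windows of the same length in the table. Windows of the same gene can overlap, as for Aldoa, and were counted apart. The share was not taken per gene over all genes, and windows were not matched for GC content. CACGTG was held by 5 of the 54 windows (9.26%) and by 7.15% of all windows. The core was therefore present both in Hk2, which was higher in KO tissue, and in Hk3, which was lower. A match is a description of the letters and not of binding.

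The targeted gene was checked first. Ccdc92 had normalized counts of 54.1, 68.3, 106 and 99.2 in WT replicates 1 to 4 and 9.19, 5.13, 9.67 and 4.85 in KO replicates 1 to 4, lower in all 4 libraries labelled KO (log2 difference -3.34, SE 0.33, limma adjusted p = 0.000383). Assigned reads ran from 23681088 to 33817478 per library. Summed adipocyte markers (10 genes) were 225938 to 486899 in WT and 1077878 to 1436634 in KO, with 8 of 10 higher in KO. Summed macrophage markers (10 genes) were 129124 to 275992 in WT and 42598 to 67951 in KO, with 9 of 10 lower in KO. No defining marker of either list was at 0 in either group. In bulk tissue, fewer cells of a type and less RNA per cell cannot be told apart, and the part of tissue makeup in the differences below was not tested. Some libraries stood apart. KO replicate 3 had a summed red cell signal of 4952402 against 47632 to 340894 in the other libraries. Epididymis markers summed to 31962 to 105966 in WT against 10.9 to 770 in KO, a gap between the whole groups. This difference in tissue cannot be told apart from genotype, and its part in the differences below was not tested. WT replicate 4 had the lowest epididymis sum of its group. It had the highest WT red cell sum, 340894 against 47632, 51117 and 48856 in WT replicates 1 to 3. Its skeletal muscle sum was 2100.2 against 463, 715 and 339 in those libraries, and its brown adipocyte sum 378 against 147, 221 and 192. The part of such tissue in the WT replicate 4 values below was not tested.

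Of the 39 genes, 9 were higher and 10 were lower in KO by limma at an adjusted p under 0.05. That is 23.1% higher and 25.6% lower, beside 20.2% and 21.5% of all 17798 genes tested, and 48.7% changed in either direction beside 41.7% of all genes. These shares are near the background. The KO values lay wholly above the WT values for 7 genes and wholly below them for 11, beside 21% and 21.1% of all genes (42.1% in either direction). The median log2 difference was -0.07 in the set and -0.01 over all genes. Without WT replicate 4 and KO replicate 3, 9 genes were higher and 9 lower, while the shares over all genes went to 15.4% and 18%. In the transporter, hexokinase and Pfkfb families at least 1 gene rose while another fell.

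**Figure D1:**
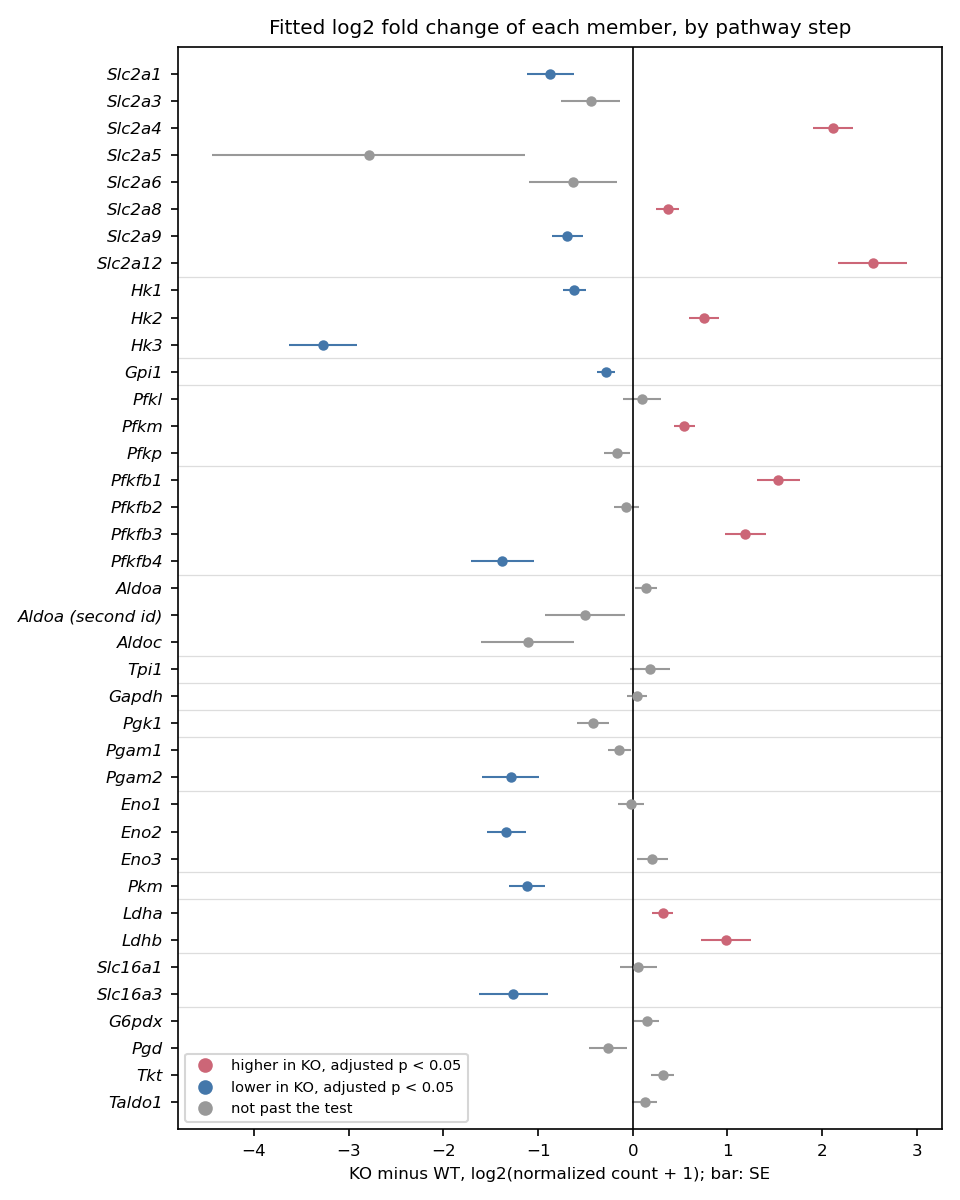
Fitted difference between KO and WT for each gene, on the log2(normalized count + 1) scale, ordered by pathway step from transporters at the top to the pentose phosphate enzymes at the bottom. Points are limma estimates from 4 WT and 4 KO libraries and bars are SE; red marks the 9 genes higher in KO, blue the 10 lower and grey the 20 that did not pass, with Slc2a12 (2.53) and Hk3 (-3.27) at the extremes.

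Among the transporters, the adipocyte GLUT4 and GLUT12 genes rose and the ubiquitous GLUT1 gene fell. Slc2a4, the insulin-responsive transporter GLUT4 (ENSMUSG00000018566.14, chromosome 11, 69942539 to 69948188, minus strand), had normalized counts of 826, 1538, 1059 and 1543 in WT replicates 1 to 4 and 5004, 4412, 5332 and 6236 in KO replicates 1 to 4. The lowest KO library was well above the highest WT library. It rose by 2.12 on the log2 scale (SE 0.21, limma adjusted p = 0.000436). Slc2a12, the related transporter GLUT12 (ENSMUSG00000037490.5, chromosome 10, 22645011 to 22704285, plus strand), was scarce in WT at 25.7, 76.9, 58.5 and 89.9 and reached 413, 293, 368 and 281 in KO. Its groups were far apart, and it had the largest rise of the set at 2.53 (SE 0.36, adjusted p = 0.0013). Slc2a8, the intracellular transporter GLUT8 (ENSMUSG00000026791.14, chromosome 2, 32972990 to 32982083, minus strand), was at 627, 745, 771 and 956 in WT and 934, 942, 1042 and 1048 in KO. WT replicate 4 lay inside the KO range, and the rise of 0.37 (SE 0.12, adjusted p = 0.0416) was lost without the filter (adjusted p = 0.0504) and when any single library other than WT replicate 4 was left out (adjusted p from 0.0596 to 0.0955).

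Slc2a1, which encodes the basal transporter GLUT1 (ENSMUSG00000028645.11, chromosome 4, 119108711 to 119137983, plus strand), had normalized counts of 1540.2, 661, 1031 and 765 in WT and 541, 566, 555 and 418 in KO. WT replicate 1 was the highest by a wide margin and the KO libraries were all below the lowest WT library. Slc2a1 fell by 0.87 on the log2 scale (SE 0.25, adjusted p = 0.0226), a call lost without WT replicate 3 (adjusted p = 0.0587) or without KO replicate 4 (adjusted p = 0.0589). Slc2a9, a urate and hexose transporter (ENSMUSG00000005107.13, chromosome 5, 38349273 to 38503143, minus strand), was at 288, 313, 309 and 238 in WT and 184, 229, 149 and 153 in KO. Its groups did not overlap and it fell by 0.69 (SE 0.17, adjusted p = 0.0104).

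The other 3 transporters did not pass. Slc2a5, the fructose transporter GLUT5, was at 123, 149, 209 and 0 in WT and 10.3, 0.855, 12.9 and 4.85 in KO. WT replicate 4 was at 0 while the other WT libraries were all above the highest KO library. With that library the log2 difference was -2.79 (SE 1.65, adjusted p = 0.205), and without it -4.61 (adjusted p = 0.00231). All 6 sperm and testis markers ranked the 4 WT libraries as Slc2a5 did, with replicate 3 highest, then 2, 1 and 4. Their sum over the list was 958, 1138, 2253 and 107 in WT and lay between 137 and 278 in KO. Gapdhs, a sperm dehydrogenase, held most of that sum in WT replicate 4, at 105, and in KO, at 119.5, 135, 158 and 199. Prm2, a sperm protamine, was at 574, 682, 1357 and 0 in WT and 24.1, 0, 75.2 and 0 in KO. In WT replicate 4 Prm2, Ldhc and Tnp1 were at 0 as Slc2a5 was, and 0 of the 4 markers that could be tested passed by limma (1 under 0.05 before adjustment). The part of germ cell RNA in the Slc2a5 values was not tested. The count models also called Slc2a5 lower, at an adjusted p of 0.0326 by edgeR and 0.00224 by DESeq2. Slc2a3, the high-affinity transporter GLUT3, ran from 579 to 876 (WT) and from 290 to 865 (KO), a log2 difference of -0.45 (SE 0.32, adjusted p = 0.285). Slc2a6, a lysosomal transporter of inflammatory macrophages, ran from 56.7 to 265 (WT) and from 48.5 to 121 (KO), a log2 difference of -0.63 (SE 0.47, adjusted p = 0.307). Both overlapped between groups.

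Levels can be set side by side only per length. Per kilobase of exon, Slc2a4 made up 31.4% ± 9.0 (SD, n = 4) of the summed transporter signal in WT and 68.7% ± 3.2 in KO. Slc2a1 made up 25.1% ± 9.9 in WT and 6.89% ± 1.5 in KO. Slc2a8 held 21.3% ± 3.5 in WT and 14.2% ± 0.84 in KO although its own counts were higher in KO, because the sum itself went from 1136 ± 11.4 to 2188 ± 225 normalized counts per kilobase. Slc2a12, for all its rise, remained a minor transporter at 1.30% ± 0.57 in WT and 3.69% ± 0.77 in KO. The transporter order was thus led by Slc2a4 in every KO library, and by Slc2a1 in WT replicate 1 and Slc2a4 in the other WT libraries. The log2 ratio of Slc2a4 to Slc2a1 within a library was -0.90, 1.22, 0.04 and 1.01 in WT and 3.21, 2.96, 3.26 and 3.89 in KO. The difference of 2.99 and those of Slc2a12 to Slc2a1 (3.41) and Slc2a8 to Slc2a1 (1.24) passed the exact permutation test (p = 0.0286 each, the smallest the 70 splits of 4 against 4 libraries can give, and 0.0464 after Benjamini-Hochberg adjustment over 26 pairs). The ratios of Slc2a3, Slc2a5, Slc2a6 and Slc2a9 to Slc2a1 did not pass.

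**Figure D2:**
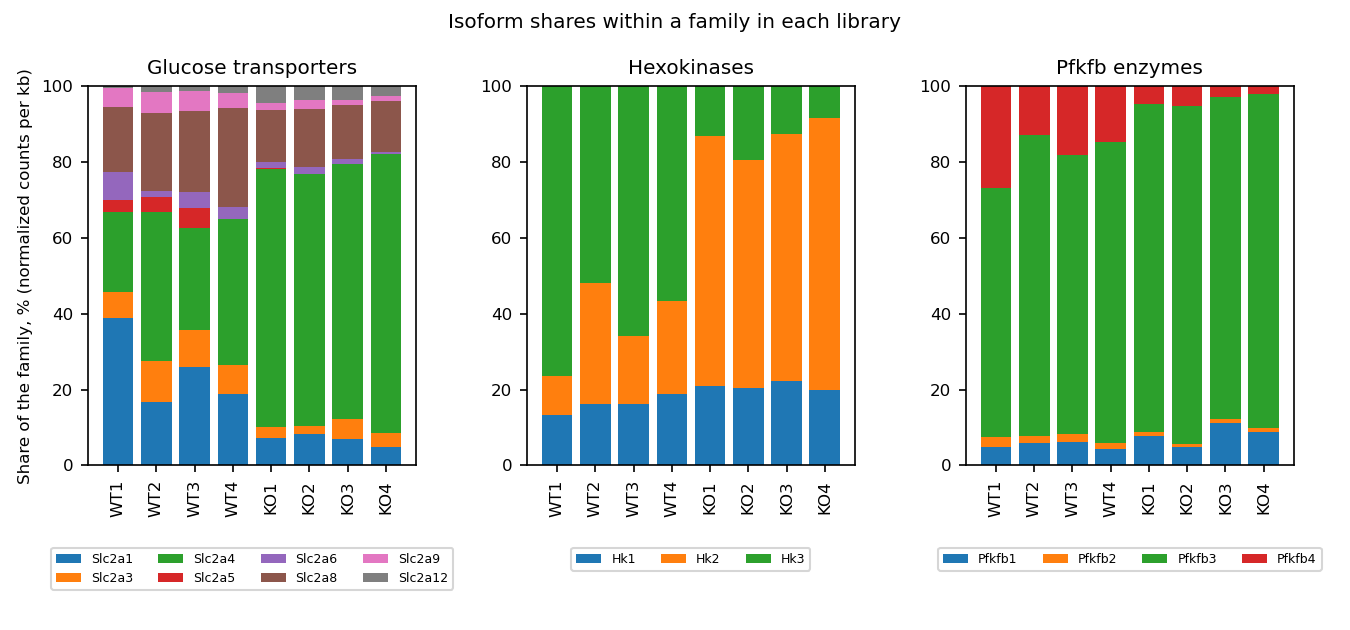
Share of each isoform in the summed signal of its family, in percent of normalized counts per kilobase of exon union, for each of the 4 WT and 4 KO libraries. Slc2a4 took 66.2% to 73.5% of the transporter signal in KO libraries and 20.9% to 39.3% in WT libraries, and Hk3, the largest hexokinase share in every WT library, was the smallest in every KO library.

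Hexokinase, the step that traps glucose in the cell, turned from Hk3 to Hk2. Hk3 is the hexokinase of myeloid cells (ENSMUSG00000025877.14, chromosome 13, 55005985 to 55021385, minus strand) and had normalized counts of 8583, 3215, 5516 and 3386 in WT and 486, 802, 435 and 349 in KO. The lowest WT library was about 4.01 times the highest KO library. It fell by 3.27 on the log2 scale (SE 0.36, adjusted p = 0.000538), the largest fall in the set that passed. Hk2, the insulin-responsive hexokinase of muscle and fat (ENSMUSG00000000628.10, chromosome 6, 82725025 to 82774454, minus strand), was at 1863, 3193, 2426 and 2372 in WT and 3963, 3977, 3622 and 4826 in KO. All KO libraries were above all WT libraries, and Hk2 rose by 0.75 (SE 0.16, adjusted p = 0.00692). Hk1, the housekeeping hexokinase (ENSMUSG00000037012.18, chromosome 10, 62268855 to 62379908, minus strand), was at 3441, 2334, 3129 and 2612 in WT and 1795, 1929.6, 1778 and 1919.8 in KO. It fell by 0.62 (SE 0.12, adjusted p = 0.00467), with KO libraries closely grouped below the WT range.

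Per kilobase, Hk3 held 62.8% ± 10.9 (SD, n = 4) of the hexokinase signal in WT and 13.5% ± 4.6 in KO, while Hk2 went from 21.1% ± 9.2 to 65.7% ± 4.8. Hk1 held 16.1% ± 2.3 in WT and 20.9% ± 1.0 in KO, so its share was higher in KO although its counts fell. With the longest transcript as the length in place of all exons, the Hk1 share was 25.3% in WT and 32.5% in KO. The summed hexokinase signal was 2156 ± 662 normalized counts per kilobase in WT and 1045 ± 91.5 in KO. Within libraries the log2 ratio of Hk3 to Hk2 ran from 0.01 to 2.20 (WT) and from -3.78 to -2.31 (KO). The 3 hexokinase ratios all differed between groups, Hk3 to Hk2 by -4.02, Hk3 to Hk1 by -2.65 and Hk2 to Hk1 by 1.37 (exact permutation p = 0.0286 and adjusted p = 0.0464 each). The fall of Hk3 stood beside the lower macrophage marker sum and the rise of Hk2 beside the higher adipocyte marker sum, and the part of these in the ratios was not tested.

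**Figure D3:**
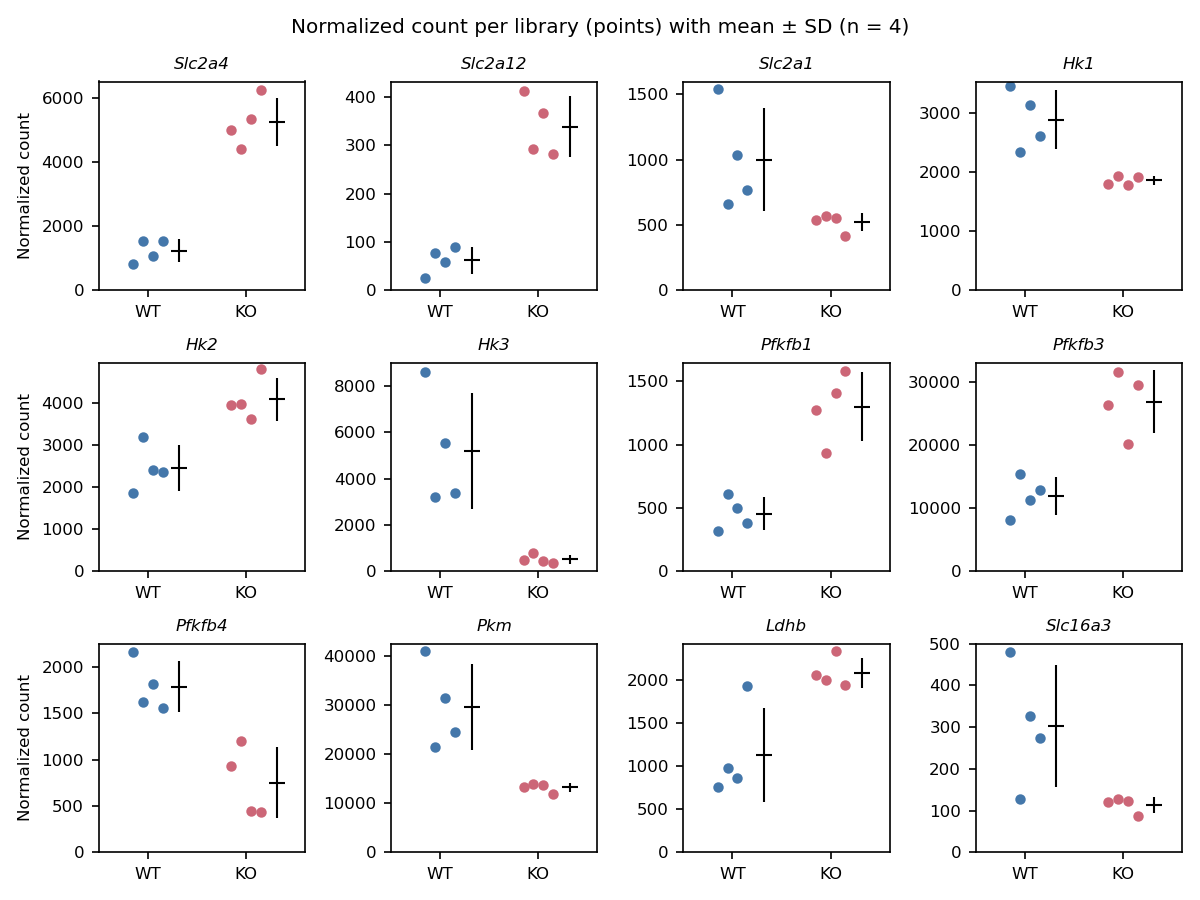
Normalized counts of 12 genes in each library on linear axes that start at 0, with the WT libraries in blue, the KO libraries in red, and the horizontal line and bar giving mean ± SD (n = 4). In all 12 panels the KO points lie wholly above or wholly below the WT points, closest for Slc16a3 (WT replicate 2 at 129 and KO replicate 2 at 128) and Ldhb (WT replicate 4 at 1933 and KO replicate 4 at 1949).

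Glucose-6-phosphate isomerase has a single gene, Gpi1 (ENSMUSG00000036427.5, chromosome 7, 34201330 to 34230336, minus strand), with normalized counts of 8946, 7053, 7545 and 7832 in WT and 5977, 6191, 6912 and 6657 in KO. The groups did not overlap but lay close together, and Gpi1 fell by 0.28 (SE 0.097, adjusted p = 0.0455). This call was lost with edgeR (adjusted p = 0.0557), with TMM scaling (0.0549), without the filter (0.0564), without both WT replicate 4 and KO replicate 3 (0.0887) and when any single library other than WT replicate 2 was left out (0.0502 to 0.118).

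Phosphofructokinase commits the sugar to glycolysis, and of its 3 genes the muscle-type Pfkm rose. Pfkm (ENSMUSG00000033065.14, chromosome 15, 98092589 to 98132451, plus strand) had normalized counts of 574, 625, 578 and 779 in WT and 846, 932, 1015 and 918 in KO. No KO library fell within the WT range, and the rise was 0.55 (SE 0.11, adjusted p = 0.00569). The liver-type Pfkl (log2 difference 0.10, SE 0.20, adjusted p = 0.722) and the platelet-type Pfkp (log2 difference -0.17, SE 0.14, adjusted p = 0.364) overlapped between groups. Pfkl counts spread from 2292 to 4638 (WT) and from 3345 to 3875 (KO). Per kilobase, Pfkl held 54.6% ± 7.9 (SD, n = 4) of this step in WT and 52.8% ± 1.4 in KO and led in every library, while Pfkm held 20.4% ± 1.3 and 27.2% ± 3.2. The ratio of Pfkp to Pfkm differed by -0.71 (exact permutation p = 0.0286, adjusted p = 0.0464), and that of Pfkm to Pfkl by 0.45 without passing (adjusted p = 0.117).

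The bifunctional Pfkfb enzymes make and degrade fructose-2,6-bisphosphate, the strongest activator of phosphofructokinase, and their 4 genes went in different directions. Pfkfb3, the inducible isoform with high kinase activity (ENSMUSG00000026773.19, chromosome 2, 11471433 to 11554077, minus strand), was at 8151, 15365, 11310.4 and 12951 in WT and 26362, 31652, 20121 and 29466 in KO. It was by far the most abundant of the 4 in every library and rose by 1.19 (SE 0.22, adjusted p = 0.00334). Pfkfb1, the isoform of liver and muscle (ENSMUSG00000025271.13, chromosome X, 150588229 to 150643878, plus strand), was at 321, 615, 499 and 380.1 in WT and 1277, 936, 1406 and 1586 in KO. Its groups were separate and it rose by 1.54 (SE 0.23, adjusted p = 0.00151). Pfkfb4, a hypoxia-inducible isoform (ENSMUSG00000025648.18, chromosome 9, 108991778 to 109032228, plus strand), was at 2160.3, 1617, 1808 and 1557 in WT and 934, 1197, 441 and 433 in KO. KO replicates 3 and 4 were lowest, and it fell by 1.38 (SE 0.33, adjusted p = 0.0112). Pfkfb2, the heart isoform, ran from 245 to 331 (WT) and from 259 to 334 (KO), a log2 difference of -0.07 (SE 0.13, adjusted p = 0.701).

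The summed Pfkfb signal was 2100.2 ± 377 normalized counts per kilobase in WT and 4075 ± 683 in KO. Pfkfb3 held 74.4% ± 6.5 (SD, n = 4) of it in WT and 87.1% ± 1.8 in KO, and Pfkfb4 held 18.2% ± 6.2 and 3.72% ± 1.5. Of the 6 ratios within this family, 5 differed between groups by the exact permutation test (p = 0.0286, adjusted p = 0.0464 each), from -2.92 for Pfkfb4 to Pfkfb1 to 1.26 for Pfkfb3 to Pfkfb2. The exception was Pfkfb3 to Pfkfb1, the pair in which both rose, at -0.35 (adjusted p = 0.334).

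From aldolase to enolase the main isoform of each step did not pass the test, while minor isoforms did at the mutase and enolase steps. Aldoa, the main aldolase, ran from 33733 to 37355 normalized counts (WT) and from 34162 to 44087 (KO), a log2 difference of 0.14 (SE 0.12, adjusted p = 0.377). The second identifier that carries the symbol Aldoa (ENSMUSG00000114515.2), which lies next to it on chromosome 7, held 16.4 counts at most (log2 difference -0.51, SE 0.43, adjusted p = 0.367). Aldoc, the brain-type aldolase, had at most 121 counts in a library (log2 difference -1.11, SE 0.49, adjusted p = 0.1), though its ratio to Aldoa lay below the WT range in all 4 KO libraries (-1.25, exact permutation p = 0.0286, adjusted p = 0.0464). Tpi1, triosephosphate isomerase, ran from 10358 to 12761 (WT) and, more widely, from 8581 to 17393 (KO) (log2 difference 0.18, SE 0.21, adjusted p = 0.512).

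Gapdh, often taken as a reference gene, was at 26368, 20704, 23345 and 23834 in WT and 25137, 23897, 25439.6 and 22735 in KO. The groups overlapped, and its difference was 0.05 (SE 0.11, adjusted p = 0.738), of the other sign with quantile scaling (-0.07) and without WT replicate 2 (-0.01). Pgk1, phosphoglycerate kinase, was at 7823, 4860.3, 6248 and 4962 in WT and 4779, 4540.2, 4614 and 3650.4 in KO. Every KO library was below every WT library by a narrow gap, but the difference of -0.42 (SE 0.17) had an adjusted p of 0.0698 by limma. It passed with DESeq2 (adjusted p = 0.0327), quantile scaling (0.0414), library weights (0.0205) and without WT replicate 2 (0.0448).

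Pgam2, the muscle phosphoglycerate mutase (ENSMUSG00000020475.3, chromosome 11, 5801640 to 5803733, minus strand), was at 92.7, 86.5, 137 and 49.6 in WT and 28.7, 35, 33.3 and 42.5 in KO. It fell by 1.29 (SE 0.30, adjusted p = 0.00984) without overlap. Among WT libraries Pgam2 was highest in replicate 3 and lowest in replicate 4, as the sperm and testis markers were. Replicates 1 and 2 were in the other order, and the part of germ cell RNA in the Pgam2 values was not tested. The main isoform Pgam1 ran from 5710 to 8309 (WT) and from 5570.2 to 6439 (KO), a log2 difference of -0.14 (SE 0.12, adjusted p = 0.371). It made up 96.9% ± 1.2 of the step per kilobase in WT and 98.7% ± 0.29 in KO. Eno2, the neuron-type enolase (ENSMUSG00000004267.16, chromosome 6, 124760053 to 124769673, minus strand), was at 447, 324, 314 and 315 in WT and 109, 129, 124 and 198 in KO. KO replicate 4 was the highest of its group yet below all WT libraries, and Eno2 fell by 1.34 (SE 0.21, adjusted p = 0.00161). Eno1, the ubiquitous enolase, held 94.5% ± 0.27 (SD, n = 4) of the step per kilobase in WT and 94.9% ± 2.0 in KO. Its difference was -0.02 (SE 0.14, adjusted p = 0.927), and its sign turned with edgeR, DESeq2, TMM scaling and library weights. Eno3, the muscle enolase, ran from 187 to 229 (WT) and from 208 to 329 (KO), a log2 difference of 0.21 (SE 0.16, adjusted p = 0.332). Within libraries, the ratios Pgam2 to Pgam1 (-1.15), Eno2 to Eno1 (-1.32) and Eno3 to Eno2 (1.55) differed by the exact permutation test (p = 0.0286, adjusted p = 0.0464 each), and Eno3 to Eno1 did not (0.23, p = 0.543, adjusted p = 0.565).

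Pyruvate kinase, which closes glycolysis, fell. Pkm (ENSMUSG00000032294.17, chromosome 9, 59656368 to 59679375, plus strand) had normalized counts of 41095, 21477, 31471 and 24460.4 in WT and 13393, 13872, 13754 and 11992 in KO. The KO libraries were closely grouped and all below the lowest WT library, and the fall was 1.12 on the log2 scale (SE 0.19, adjusted p = 0.00275). The table counts whole genes, so the M1 and M2 splice forms of Pkm were not separated. Among WT libraries Pkm was highest in replicate 1 and lowest in replicate 2, in the order of both the macrophage and the fibroblast marker sums.

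At the lactate step both dehydrogenase genes rose and 1 of 2 transporters fell. Ldhb, the subunit typical of oxidative tissue (ENSMUSG00000030246.11, chromosome 6, 142490249 to 142507957, minus strand), was at 754, 975, 861 and 1933 in WT and 2060.4, 2006, 2339 and 1949 in KO. WT replicate 4 was near the KO libraries and about 1.98 times the next WT library, and the rise was 0.99 (SE 0.26, adjusted p = 0.0175), with an adjusted p of 0.0507 without WT replicate 3. Ldha, the subunit typical of glycolytic tissue (ENSMUSG00000063229.15, chromosome 7, 46841475 to 46855627, plus strand), was at 14986, 15358, 14529 and 18360.3 in WT and 19257, 21125, 20301 and 17818 in KO. The groups overlapped through WT replicate 4 and KO replicate 4. Its rise of 0.32 (SE 0.11, adjusted p = 0.0466) was lost with quantile scaling (adjusted p = 0.1253), without the filter (0.0539) and when any single library other than these 2 was left out (0.0881 to 0.134). Ldha held 87.3% ± 3.8 (SD, n = 4) of the step per kilobase in WT and 81.7% ± 1.2 in KO, and the ratio of Ldhb to Ldha differed by 0.67 without passing (exact permutation p = 0.0571, adjusted p = 0.0874).

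Slc16a3, the lactate exporter MCT4 (ENSMUSG00000025161.16, chromosome 11, 120948480 to 120960868, plus strand), was at 481, 129, 328 and 273 in WT and 121, 128, 124 and 86.1 in KO. WT replicate 2 lay just above the KO range, and Slc16a3 fell by 1.26 (SE 0.36, adjusted p = 0.0237). The call was lost without WT replicate 3 (adjusted p = 0.0634), without KO replicate 4 (0.0607) and without both WT replicate 4 and KO replicate 3 (0.0798). Slc16a1, the bidirectional transporter MCT1, ran from 1043 to 1556 (WT) and from 1075 to 1886 (KO), a log2 difference of 0.06 (SE 0.19, adjusted p = 0.823). The ratio of Slc16a3 to Slc16a1 differed by -1.32 and did not pass (adjusted p = 0.117).

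**Figure D4:**
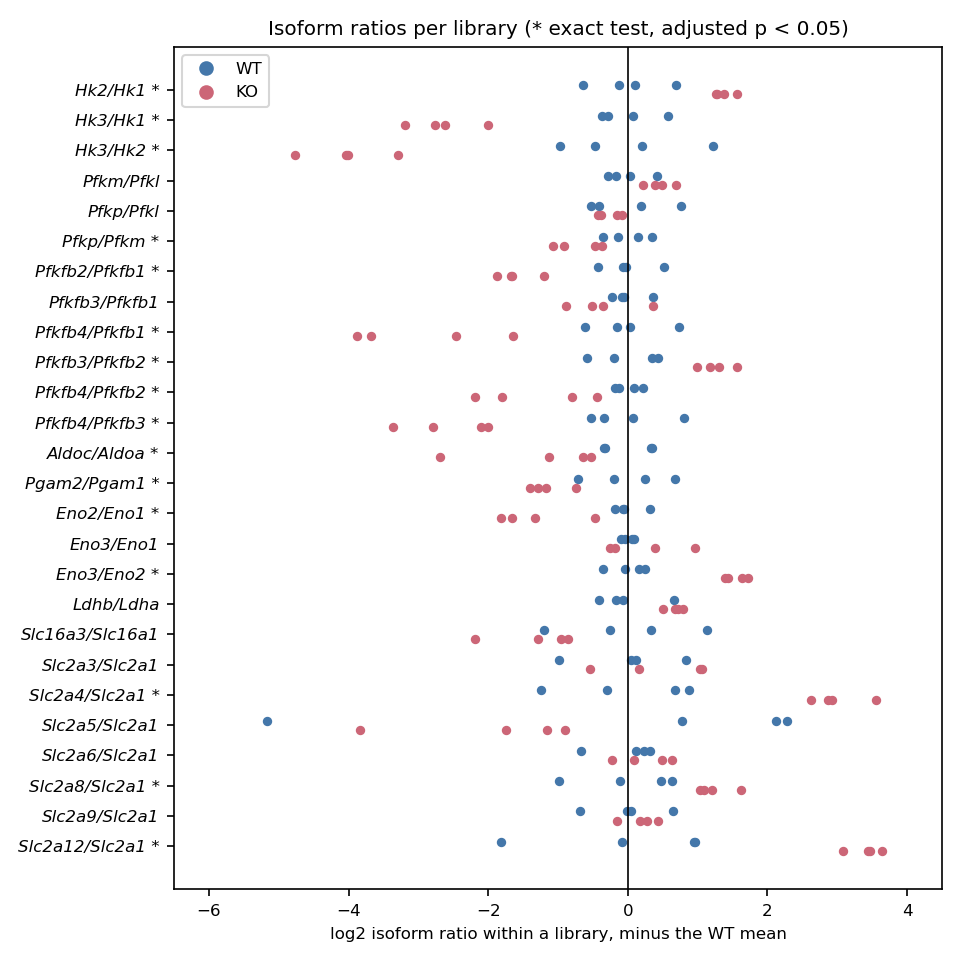
Log2 ratio of 2 isoforms within each library, shown as the distance from the WT mean of that pair, for the 26 pairs; each dot is 1 library (4 WT in blue, 4 KO in red) and an asterisk marks an adjusted p under 0.05 by the exact permutation test. The 16 marked pairs are those in which no KO ratio falls within the WT range, with Slc2a12 to Slc2a1 (3.41) and Hk3 to Hk2 (-4.02) the farthest from 0.

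None of the 4 pentose phosphate genes passed by limma or by edgeR, 1 of them (Tkt) passed by DESeq2, and 1 (Tkt) was below the threshold of 0.05 by limma before adjustment. G6pdx, the glucose-6-phosphate dehydrogenase that opens the pathway, ran from 6716 to 8065 (WT) and from 6876 to 9873 (KO), a log2 difference of 0.15 (SE 0.13, adjusted p = 0.398). Pgd, the next NADPH-producing dehydrogenase, ran from 11473 to 17727 (WT) and from 8189 to 14650 (KO), a log2 difference of -0.27 (SE 0.20, adjusted p = 0.317). Tkt, the transketolase of the non-oxidative branch, was at 11797, 10989, 10588 and 10285 in WT and 12519, 11471, 15917 and 14855 in KO. Only KO replicate 2 fell within the WT range, and the difference of 0.32 (SE 0.12) had an adjusted p of 0.0656 by limma, 0.018 by DESeq2, 0.0354 with library weights and 0.0294 without KO replicate 2. Taldo1, transaldolase, ran from 7286 to 10281 (WT) and from 8709 to 10701 (KO), a log2 difference of 0.13 (SE 0.13, adjusted p = 0.473).

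Across the isoform families, 16 of 26 within-library ratios differed between groups, and all 16 were pairs whose groups did not overlap. Each had the smallest p of the exact permutation test (0.0286), and passed after adjustment (0.0464) only because many pairs tied there. Pairs of a family share genes, so they are not independent results. The share over all gene pairs was not computed, and 42.1% of all single genes did not overlap. In the order of the 4 WT libraries, 12 of the 39 genes (30.8%) ranked the libraries exactly as the macrophage marker sum did (replicate 1 highest, then 3, 4 and 2), beside 10.5% of all genes tested. These 12 were Slc2a1, Slc2a6, Hk1, Hk3, Pfkp, Aldoc, Pgk1, Pgam1, Pkm, Slc16a3, Pgd and Taldo1. The adipocyte marker order of the WT libraries (replicate 2 highest, then 4, 3 and 1) was followed by Pfkfb3 alone (2.56%, beside 10.6% of all genes). The fibroblast marker sum ranked the WT libraries as the macrophage sum did, and the endothelial sum as the adipocyte sum did. The adipocyte order is also the reverse of the macrophage order, so these cell types cannot be told apart by the WT order. Among KO libraries the macrophage order was followed by Aldoa alone (2.56%, beside 5.83% of all genes) and the adipocyte order by Slc2a4 and Pfkfb1 (5.13%, beside 8.4%), so neither share was above that of all genes. Each order rests on 4 libraries and is a description.

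The related genes of these pathways outside the set were taken from a list of 67, of which 64 were in the table and 60 could be tested. That list was chosen with earlier results of these data known, so its shares beside those of all genes are a description. By limma 21 were higher and 8 lower in KO, which is 35% and 13.3% of those tested beside 20.2% and 21.5% of all genes, and their median log2 difference was 0.13. The 4 with the smallest p among those that rose were 2 glycogen phosphorylases, an NADPH-producing enzyme and the lactate receptor. Pygb, brain-type glycogen phosphorylase, was at 3447, 4372, 3981 and 4663 in WT and 10143, 11018, 15295 and 16583 in KO (log2 difference 1.67, SE 0.18, adjusted p = 0.000496). Pygl, the liver-type phosphorylase, rose by 1.45 (SE 0.16, adjusted p = 0.000538). H6pd, which makes NADPH from glucose-6-phosphate inside the endoplasmic reticulum, was at 9183, 11231, 9649 and 10519 in WT and 21919.5, 19145, 24048 and 24272 in KO (log2 difference 1.14, SE 0.11, adjusted p = 0.000415). It rose while the cytosolic G6pdx did not pass. Hcar1, the lactate receptor of adipocytes, rose by 1.998 (SE 0.24, adjusted p = 0.000726).

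Of the related genes that fell, Tbc1d1, a Rab GTPase-activating protein of GLUT4 traffic, had the smallest p, at 1823, 1835, 1902 and 1998 in WT and 956, 894, 799 and 745 in KO (log2 difference -1.16, SE 0.09, adjusted p = 0.000196). The WT libraries were close to each other and far above the KO libraries. Emb, embigin, a chaperone of monocarboxylate transporters, fell by 2.42 (SE 0.23, adjusted p = 0.000385). Ppp1r3b, a glycogen-targeting subunit of protein phosphatase, fell by 1.07 (SE 0.19, adjusted p = 0.00264). Prps2, which makes phosphoribosyl pyrophosphate from ribose-5-phosphate, fell by 0.82 (SE 0.16, adjusted p = 0.00407).

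Reads can be shared between a gene and its near-identical copies. For 8 of the genes the table held other genes that do not overlap them and whose transcripts share at least 20% of their 50-base words with them. Pfkfb2 also has 1 such partner, Gm29427, but the genes overlap and were not summed. For Gapdh the copies were 47 genes that held 54.2% to 56.2% of the summed count in every library. The copies of Pgk1 held 38.8% to 40.6%, that of Pgam1 32.9% to 34.1% and those of Eno1 27.1% to 28.6%. The sum of gene and copies was 2.18 to 2.28 times the printed level for Gapdh, 1.63 to 1.68 times for Pgk1, 1.49 to 1.52 times for Pgam1 and 1.37 to 1.40 times for Eno1, and the split of reads between them is uncertain. Some copies had almost equal counts, such as Gm10359, Gm12671 and Gm7336 of Gapdh at 3022, 3042 and 3052 in WT replicate 1. Whether a shared read was counted at several copies was not tested. If so, the sums hold reads more than once and are not levels. Summing each gene with its copies, an alternative chosen after seeing the data, left 9 higher and 10 lower. Of the 39 entries, 19 overlap another gene of the table, 16 of them on the opposite strand, among them Hk3 with Unc5a, Slc2a12 with Tbpl1 and Pfkfb1 with Apex2. The strand setting of the counting was not given in the sources used here, so reads of such pairs cannot be told apart.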

How the data were processed

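RNA was measured in 8 libraries, 4 WT and 4 KO, grouped and numbered by their titles. The deposited signal is a count per gene that the authors had normalized. Per the submitters' processing notes, STAR 2.7.7, DESeq2 and the GRCm38.p6 build were used, with no role stated. The read counter and its handling of shared reads were not given in the sources used here. Every value above 0 was a whole multiple of 1 step in its library (100.0% within 0.01 of a read), so reads were recovered, with size factors of 0.8246 to 1.1702. Of the identifiers, 24802 matched GENCODE M21 without their version and 19 did not; gene coordinates are on GRCm38.

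The test was limma 3.58.1 (R 4.3.3) on log2(normalized count + 1) with genotype as the only term, trend and robust options on. A gene entered when 4 or more libraries reached 10, and was called at an adjusted p under 0.05 (Benjamini-Hochberg, over 17798 genes). Differences are KO minus WT on that scale, which understates those of low genes. edgeR 4.0.16 and DESeq2 1.42.0 on recovered reads, quantile and TMM scaling, pseudocounts of 0.5 and 5, no filter or one at 50, library weights, a replicate block and libraries left out were alternatives. Isoform ratios were taken within a library and compared by a two-sided exact permutation test (scipy 1.17.1). Shares used counts per kilobase of exon union. The genes and lists were chosen with earlier results of these data known. All 38 symbols are named; of the related genes, the 4 with the smallest p in each direction are named.

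Marker lists for other tissues gave, in normalized counts, WT sums of 12667 to 26025 and KO sums of 29830.0 to 33298 for endothelium (3 of 6 higher in KO), 155986 to 247733 and 73179 to 147613 for fibroblasts (3 of 6 lower), 474 to 528 and 293 to 1017 for neutrophils (2 of 4 tested higher), 339 to 2100.2 and 661 to 2855 for skeletal muscle (1 of 3 tested higher), 107 to 2253 and 137 to 278 for sperm and testis (0 of 4 tested passed, 1 under 0.05 before adjustment) and 147 to 378 and 170.1 to 214 for brown adipocytes (0 of 2 tested passed, 0 before adjustment). For epididymis 3 of 4 tested markers were lower, and for red cells 0 of 4 passed (0 before adjustment), all by limma.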

Additional observations from a re-analysis of the deposited data

Results flagged for a closer look

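In 3 of 130 groups of 4 libraries checked, 1 library lay farther from the rest of its group than Dixon's critical value at 95% allows; chance alone gives about 1 in 20. Slc2a1 in KO replicate 4 had a normalized count of 418, below 541 to 566 in the other KO libraries. Eno2 in WT replicate 1 had 447, above 314 to 324 in the other WT libraries. Taldo1 in KO replicate 3 had 10701, above 8709 to 8966 in the other KO libraries, and this is the library with the red cell sum of 4952402.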

How the results depend on the processing

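Of the 19 genes called, 13 (6 higher, 7 lower) kept their call in each of 20 other settings that tested them (Pgam2 was below the filter at 50), and 6 (Slc2a1, Slc2a8, Gpi1, Ldha, Ldhb and Slc16a3) lost it in at least 1, with the values given above. A further 6 genes passed in at least 1 setting without passing in the reported test; Slc2a3, Aldoa and Tpi1 did so with library weights alone (adjusted p of 0.0366, 0.0343 and 0.0495 by limma). The genes called higher numbered 6 to 9 with 1 library left out and 7 to 12 in the other settings; those called lower numbered 7 to 11 and 9 to 13. With library weights 13 of the related genes were lower instead of 8, while the share of all genes called lower went from 21.5% to 28.3%. In 5 genes far from the threshold the sign of the log2 difference turned. Pfkfb2 was 0.037 with quantile scaling, and Gapdh -0.071 with it. Eno1 was 0.019 with edgeR, 0.0039 with DESeq2, 0.0020 with TMM scaling, 0.14 with library weights and 0.04 without WT replicate 4 and KO replicate 3. With 1 library left out, or WT replicate 4 and KO replicate 3 together, the difference ran from -0.087 to 0.288 for Pfkl, -0.012 to 0.104 for Gapdh, -0.104 to 0.087 for Eno1 and -0.098 to 0.258 for Slc16a1, and the ratio difference ran from -0.049 to 0.397 for Slc2a9 to Slc2a1 and -0.02 to 0.388 for Eno3 to Eno1. The libraries whose removal turned the sign were WT replicate 1 for Pfkl, Eno1, Slc16a1 and Slc2a9 to Slc2a1, WT replicate 2 for Gapdh, KO replicate 3 for Eno1, and KO replicate 4 for Eno1, Slc16a1 and Eno3 to Eno1. The cause was not tested. Isoform pairs that differed numbered 15 to 16 in the other settings; with 3 libraries against 4 the exact test was not run, and a test on numbered pairs cannot pass. Same-numbered WT and KO libraries correlated at -0.14 to 0.17 in their deviations from the group means, and replicate 4 alone correlated best with its own number, so the numbers were not taken as pairs. The fit with the replicate number as a block gave 8 genes higher and 10 lower: Gpi1 (adjusted p = 0.101) and Ldha (0.119) lost their call and Pgk1 (0.042) gained one. Quantile scaling moved the median log2 difference of all genes from -0.01 to 0.10 and the calls over all genes from 3592 higher and 3831 lower to 4593 and 3257. Shares by longest transcript in place of exon union moved by more than 1 SD in 18 of 58 values, for example Hk1, at 25.3% in WT and 32.5% in KO. Genes with few reads, such as Slc2a5 in KO libraries, are limited by depth.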

Other observations

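Germ cell isoforms of 3 glycolytic steps were found, Pgk2 and Ldhc mainly in WT replicates 1 to 3 and Gapdhs in every library. Pgk2, the sperm phosphoglycerate kinase, was at 63.3, 89.4, 153 and 0.936 in WT replicates 1 to 4 and 1.15, 0, 6.45 and 0 in KO replicates 1 to 4. Ldhc, the sperm lactate dehydrogenase, was at 53.2, 64.4, 148 and 0 in WT and 3.45, 1.71, 11.8 and 2.43 in KO. Gapdhs, the sperm glyceraldehyde-3-phosphate dehydrogenase, was at 206, 216, 376 and 105 in WT and 119.5, 135, 158 and 199 in KO. WT replicate 3 was the highest library for all 3 genes, and WT replicate 4 was the lowest WT library for all 3. These genes were picked out after their values had been seen.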
